A study of Mus musculus with 45 samples.

Results

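The genes described here are 29 genes of cholesterol and fatty acid synthesis, read in brain tumours of a mouse glioblastoma model. They were chosen by symbol, and each gene's value was that of its named probe set with the highest mean over the 45 arrays. Of the 29 genes, 25 had a probe set of a single gene symbol, out of 17097 such genes on the array. All 25 passed the filter on low signals. The symbols of Pmvk, Srebf1, Acat2 and Scd2 were not among the named probe sets, and these 4 genes are not analysed here. The 25 measured genes comprised 5 of the mevalonate steps, 11 of the steps from squalene to cholesterol, 4 regulators and sterol carriers, and 5 genes of fatty acid synthesis.

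RNA came from mouse brain, from CD-1 nude animals with tumours lacking p53. Per the series description, primary mouse astrocytes without p53 received retroviruses carrying unmutated PDGFRA or 1 of 6 mutants of this receptor. The labels gave 8 groups: Pdgfra V544ins with 9 arrays, Pdgfra E10 del.v2 with 9, EGFRvIII with 8, Pdgfra C450 ins, Pdgfra D842V and Pdgfra E10 del with 5 each, Pdgfra E7 del with 3 and Pdgfra WT with 1. EGFRvIII, a truncated and constantly active form of the EGF receptor, is the other driver of the series. Every group shared the loss of p53, and no group of normal brain is analysed here. The labels name no promoter for the vectors and no age, and do not say whether arrays came from separate animals, so p-values measure only the spread between these arrays. The single WT array has no replicate, and its values are given without a test.

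Cells make cholesterol from acetyl-CoA, first through the mevalonate steps to farnesyl diphosphate, then through squalene and lanosterol. The SREBP transcription factors, held back by INSIG proteins and escorted by SCAP, switch on most of these genes when sterols are scarce. Cholesterol does not cross from blood into brain in quantity, so brain cells make their own, and myelin is rich in it. Fatty acid synthesis starts from the same acetyl-CoA and supplies the chains of membrane and myelin lipids.

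The upstream sequences of 4 genes are shown because the sterol genes varied together across arrays and because the text returns to these 4. Each is the 250 bases before the start of transcription, 5′ to 3′ on the gene's strand, from RefSeq on build GRCm38.p6. The table held a promoter for 20 of the 25 measured genes. Capitals mark CCAAT or its reverse complement ATTGG, the box bound by NF-Y, and TCACNCCAC or its reverse complement GTGGNGTGA, a form of the sterol response element bound by SREBP.
Tm7sf2, chr19:6067851-6068100, minus strand: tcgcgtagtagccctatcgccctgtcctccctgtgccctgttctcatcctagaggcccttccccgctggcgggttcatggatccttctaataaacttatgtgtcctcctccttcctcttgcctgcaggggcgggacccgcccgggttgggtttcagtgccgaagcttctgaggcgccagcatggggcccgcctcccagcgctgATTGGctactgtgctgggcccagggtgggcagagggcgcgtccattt
Lss, chr10:76531355-76531604, plus strand: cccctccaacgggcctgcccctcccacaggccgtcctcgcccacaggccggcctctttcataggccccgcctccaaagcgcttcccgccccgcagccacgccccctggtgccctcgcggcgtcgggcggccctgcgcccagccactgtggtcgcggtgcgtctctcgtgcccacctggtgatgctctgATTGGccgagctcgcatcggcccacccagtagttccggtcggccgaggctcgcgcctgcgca
Cyp51, chr5:4104698-4104947, minus strand: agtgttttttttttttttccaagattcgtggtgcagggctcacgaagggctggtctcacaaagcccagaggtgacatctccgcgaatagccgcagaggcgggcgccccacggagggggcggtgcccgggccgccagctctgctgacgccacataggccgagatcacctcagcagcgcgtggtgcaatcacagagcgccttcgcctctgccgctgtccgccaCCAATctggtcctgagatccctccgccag
Hmgcs1, chr13:119690101-119690350, plus strand: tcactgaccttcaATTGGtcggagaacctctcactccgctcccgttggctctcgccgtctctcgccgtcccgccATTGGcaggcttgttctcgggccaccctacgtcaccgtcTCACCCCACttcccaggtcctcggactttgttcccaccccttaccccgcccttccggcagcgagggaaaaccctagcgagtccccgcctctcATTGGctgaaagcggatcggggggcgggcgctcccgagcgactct
Of the 20 genes with a promoter, 16 held CCAAT on either strand, against 37.5% of the 27025 genes in the table. The strict sterol response element was found in 1 of the 20, Hmgcs1, and in 1.22% of all genes. Fdps, Fdft1, Sqle, Stard4 and Scd1 had no entry. A match is a description of letters in this window only.

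The deposited values were log2 signals, with array medians from 4.66 to 4.85. Titles carried numbers from 1 to 30 in 21 arrays and from 41 to 64 in 24 arrays. All EGFRvIII, E7 del and WT arrays had the upper numbers, all C450 ins, D842V and E10 del arrays the lower ones, and V544ins and E10 del.v2 both. The labels do not say what the numbers stand for. Between upper and lower titles within V544ins and E10 del.v2, 0 of the 25 genes passed limma's test at an adjusted p under 0.05, against 0% of all 11809 genes tested, and 3 had an unadjusted p under 0.05, as did 23.2% of all genes. The smallest p were those of Elovl6 (0.45 ± 0.20, SE, adjusted p = 0.186), Fasn (0.28 ± 0.13, SE, adjusted p = 0.194) and Stard4 (-0.49 ± 0.23, SE, adjusted p = 0.213), followed among sterol genes by Tm7sf2 (-0.33 ± 0.17, SE). Without E10 del.v2 replicate 2, Elovl6 (adjusted p = 0.0227) and Fasn (adjusted p = 0.0355) passed, 2 of the 25 genes where 24.8% of all genes passed. The neuron marker list (11 of 12 genes measured) averaged between 4.79 and 11.68 over single arrays, so the arrays differed widely in neuronal transcripts. In whole-tissue RNA, fewer cells of a type and less RNA per cell cannot be told apart. The first principal component of all genes held 41.02% of the variance, and E10 del.v2 replicate 2 had the lowest score on it and the highest neuron level.

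Most of the genes were well expressed. Among the fatty acid genes, Acly, which makes cytosolic acetyl-CoA, averaged 10.66 over the 45 arrays and Scd1, which desaturates fatty acids, 10.62. Among the sterol genes, mean log2 signals ran from 4.76 for Hmgcs1, the first committed enzyme, to 9.71 for Msmo1, a sterol demethylase. Log2 signals of different probe sets do not rank the genes. The Hmgcs1 probe set was above the median of the table in 21 of 45 arrays, so its values lie near the low end of the measured range. Scap, the escort of SREBP, varied least among the 25, with an SD of 0.14 over all arrays, and Stard4, a soluble carrier of cholesterol, varied most, with an SD of 0.72. Fdft1, squalene synthase, had an SD of 0.71.

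Averaged over the 20 sterol genes, the 3 E7 del arrays read 7.04, 7.23 and 7.38 and the WT array 7.25. The 5 C450 ins arrays lay between 7.87 and 8.16, and the 5 D842V arrays between 7.79 and 8.26. All 3 E7 del arrays were below every array of these 2 groups, which had lower titles only, while E7 del had upper titles only. V544ins spread from 7.33 to 8.36 with a median of 7.55, E10 del.v2 from 7.23 to 8.13 with a median of 7.84, and E10 del from 7.43 to 8.30 with a median of 7.86. EGFRvIII ran from 7.10 to 8.13 with a median of 7.58, so it overlapped E7 del. Among the other mutants with upper titles, V544ins replicates 6 and 7 (7.36 and 7.33) and E10 del.v2 replicate 2 (7.23) lay within the E7 del range. The mean of the 5 fatty acid genes differed less between groups. It was 9.65 ± 0.34 (SD, n = 3) in E7 del, 9.57 ± 0.34 (SD, n = 8) in EGFRvIII and 9.80 ± 0.24 (SD, n = 9) in V544ins, and all groups overlapped.

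**Figure D1:**
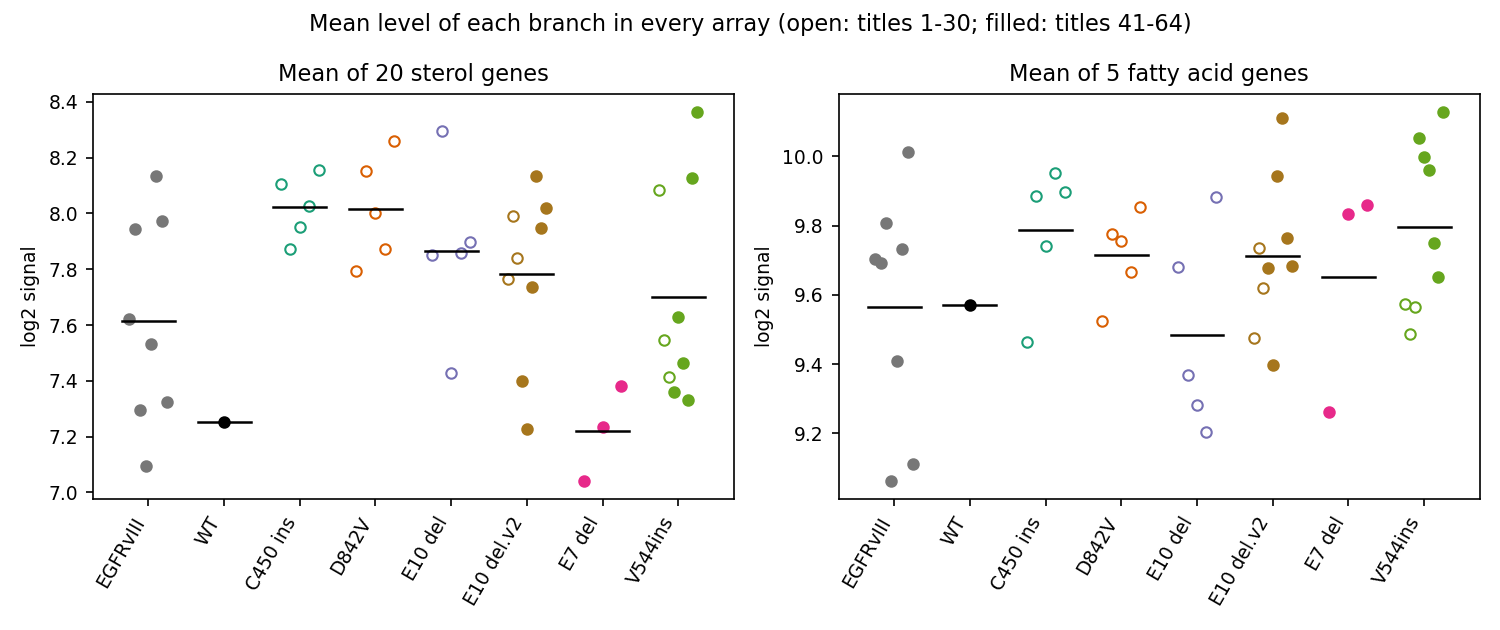
Mean log2 signal of the 20 sterol genes (left) and the 5 fatty acid genes (right) in each array, by genotype; horizontal lines are group means, open points titles 1 to 30 and filled points titles 41 to 64. The E7 del arrays, all with titles from 41 to 64, lie between 7.04 and 7.38 in the left panel. There they are below every array with a title from 1 to 30 and overlap EGFRvIII, V544ins and E10 del.v2 arrays with titles from 41 to 64. In the right panel they overlap every other group of several arrays.

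A set of 3 sterol genes differed among the 6 mutants. In limma's F test over the 6 group means, with Benjamini-Hochberg adjustment over all genes, Tm7sf2 had an adjusted p of 0.00988, Fdft1 of 0.0395 and Stard4 of 0.041. These were 3 of 20 sterol genes and 0 of 5 fatty acid genes, where 0.576% of all genes passed. Fasn, the fatty acid synthase, had an adjusted p of 0.247 and was the only fatty acid gene with an unadjusted p under 0.05. With the title range in the fit as a block, 0 of 25 passed, and the share of all genes that passed there is not given. Tm7sf2 lost its call when E7 del replicate 2 was left out (adjusted p 0.0771). Single arrays whose removal ended the call numbered 17 for Fdft1 and 23 for Stard4, with highest adjusted p of 0.182 and 0.105, and included each E7 del array; they are named with the processing results.

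Tm7sf2 encodes a sterol reductase that acts just after the Cyp51 demethylation. It read 4.94, 4.97 and 5.40 in the E7 del arrays and 5.61 in the WT array. The C450 ins arrays read 6.96, 7.43, 7.31, 6.31 and 6.70, the D842V arrays 7.37, 6.68, 6.75, 6.75 and 6.92, and the E10 del arrays 8.12, 7.34, 6.65, 6.58 and 6.70. It ran from 6.09 to 6.99 in E10 del.v2 (median 6.63), from 5.85 to 7.15 in V544ins (median 6.44) and from 6.02 to 7.30 in EGFRvIII (median 6.80). Every E7 del array was thus below each of the 33 arrays of the other mutants and below each EGFRvIII array. Tm7sf2 fell in E7 del by 1.67 ± 0.27 (SE) on the log2 scale against the mean of the other 5 mutants, a 3.19-fold difference (limma adjusted p = 0.000737).

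Fdft1 joins 2 farnesyl diphosphates into squalene, the first step committed to sterols. It read 7.64, 7.30 and 7.82 in E7 del and 7.64 in WT. Its lowest value among the other mutants was 7.84, in E10 del.v2 replicate 7, so E7 del lay below all 33 of those arrays, the last gap being small. EGFRvIII, from 7.69 to 9.43 with a median of 8.36, overlapped E7 del. Group means were 9.48 ± 0.59 (SD, n = 5) in E10 del, 9.45 ± 0.32 (SD, n = 5) in D842V, 9.27 ± 0.45 (SD, n = 5) in C450 ins, 8.97 ± 0.46 (SD, n = 9) in E10 del.v2 and 8.87 ± 0.59 (SD, n = 9) in V544ins. In E7 del Fdft1 fell by 1.62 ± 0.31 (SE; 3.07-fold, limma adjusted p = 0.012).

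Stard4, which moves cholesterol between membranes, read 5.43, 6.11 and 6.08 in E7 del and 5.59 in WT. It ranged from 5.75 to 7.42 in V544ins (median 6.81), from 6.48 to 7.67 in E10 del.v2 (median 7.31) and from 5.70 to 7.79 in EGFRvIII (median 6.98). Among the other mutants, 3 arrays lay below the highest E7 del array. Stard4 fell in E7 del by 1.41 ± 0.32 (SE; 2.65-fold, limma adjusted p = 0.0403). Each of its 3 probe sets was lower in E7 del, by log2 differences of -1.41, -1.29 and -1.23.

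**Figure D2:**
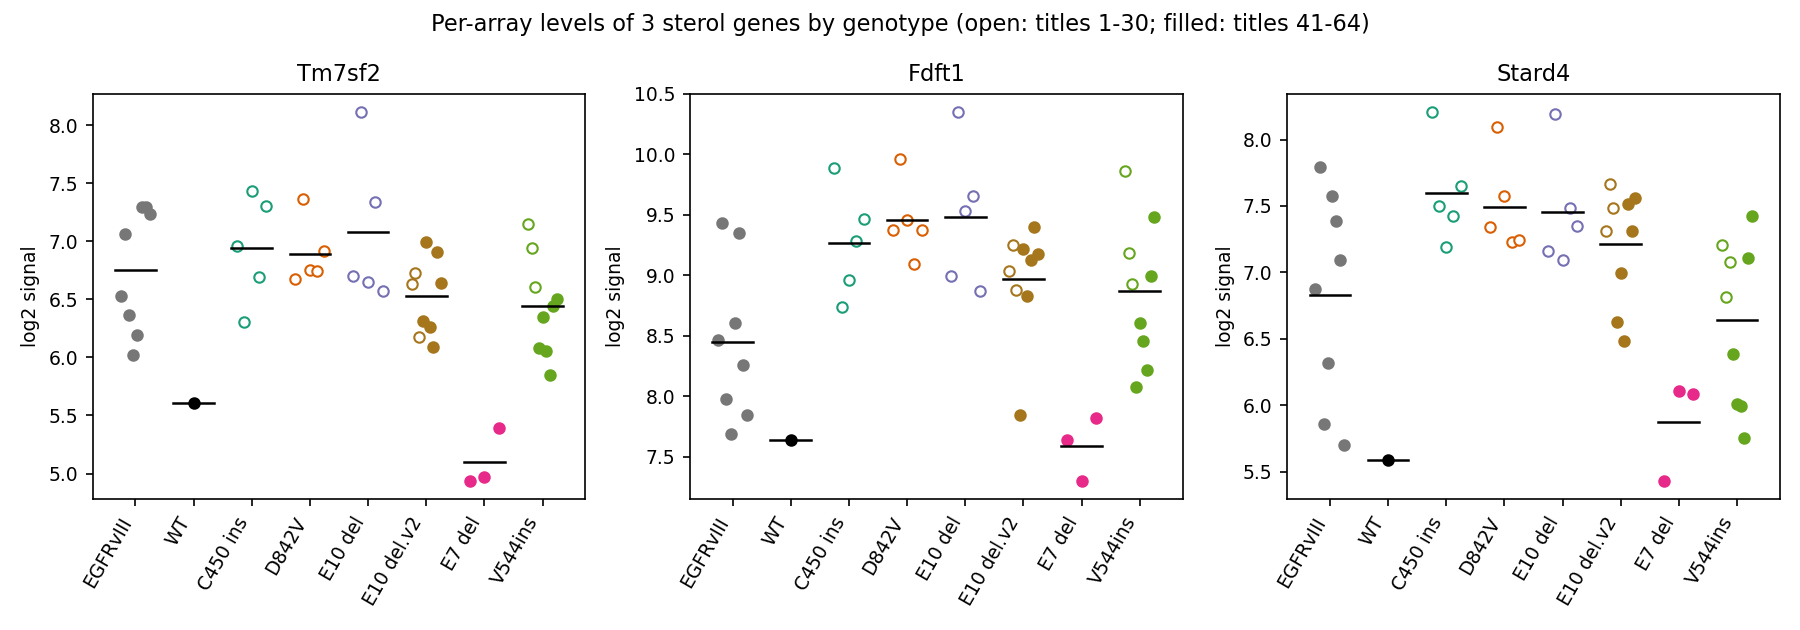
Log2 signals of Tm7sf2, Fdft1 and Stard4, 1 point per array, by genotype; lines are group means, open points titles 1 to 30 and filled points titles 41 to 64. For Tm7sf2 the E7 del arrays lie between 4.94 and 5.40 and the other mutants from 5.85 upwards; for Stard4 they overlap V544ins.

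In all, E7 del against the other 5 mutants gave 3 of 25 genes lower and 0 higher at an adjusted p under 0.05, where 0.356% of all genes passed in either direction. Of the 20 sterol genes, 19 had an estimate below 0, with a median of -0.54, against a median of 0.05 over all genes tested. In the mevalonate steps, Idi1, the isopentenyl isomerase, had a log2 difference of -1.17 ± 0.32 (SE; adjusted p = 0.0839) and Fdps, which makes farnesyl diphosphate, of -1.05 ± 0.30 (SE; adjusted p = 0.0961). Further down the pathway Msmo1 had -0.94 ± 0.28 (SE; adjusted p = 0.0979). None of these 3 passed. Hsd17b7, which reduces the sterol 3-keto group, was the sterol gene with a positive estimate, 0.24 ± 0.34 (SE). Of its 3 probe sets only the one used was positive, and the others had -0.28 and -0.01. The 5 fatty acid genes had a median of 0.09, from -0.66 ± 0.25 (SE) for Scd1 (adjusted p = 0.191) to 0.35 ± 0.17 (SE) for Fasn (adjusted p = 0.297), and 0 of 5 passed, with 1 at an unadjusted p under 0.05. Groups without overlap were seen for Tm7sf2 and Fdft1, where 0.237% of all genes had every E7 del array below the 33 others.

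**Figure D3:**
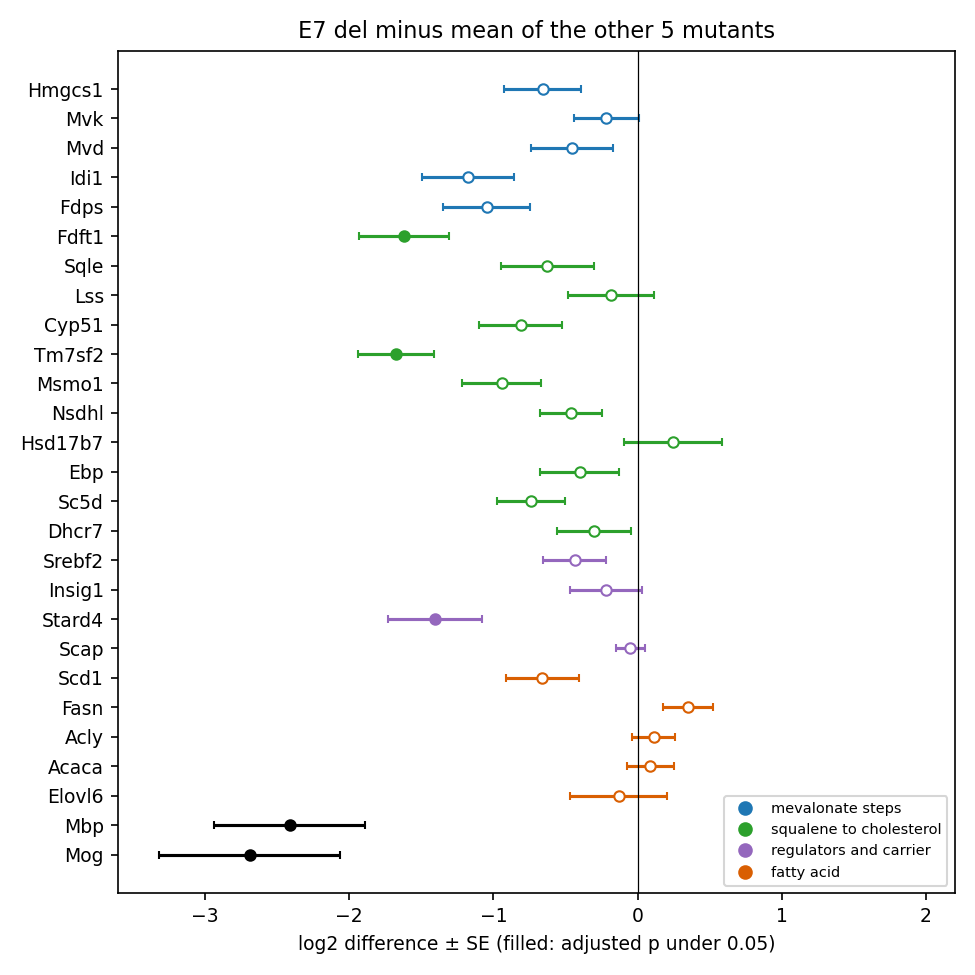
Log2 difference between E7 del (3 arrays) and the mean of the other 5 mutants for the 25 genes, ordered by role, with Mbp and Mog below; bars are ± SE and filled points have an adjusted p under 0.05. Tm7sf2, Fdft1 and Stard4 are filled, the other sterol genes except Hsd17b7 lie below 0, and Fasn, Acly and Acaca lie above 0.

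Mbp and Mog also fell in E7 del. Mbp, the myelin basic protein, read 12.27, 7.46 and 10.84 in E7 del, and 11.17 to 13.27 in the other mutants. Mog, a surface protein of mature oligodendrocytes, read 5.97, 3.35 and 4.89 in E7 del, and 5.55 to 10.08 in the other mutants. Mbp fell by 2.41 ± 0.52 (SE; limma adjusted p = 0.0269) and Mog by 2.69 ± 0.63 (SE; adjusted p = 0.0409). The myelinating oligodendrocyte list (10 of 11 genes measured) averaged 5.16 to 8.22 in E7 del and 7.56 to 10.24 in the other mutants, and the neuron list 5.34 to 9.38 against 4.79 to 11.68. Not every gene of the myelinating list was low in E7 del. Cnp read 8.90 to 10.41 there against 7.42 to 11.25, and Cldn11 9.53 to 10.88 against 8.06 to 11.85. Mag, Mobp, Ermn, Mal, Opalin and Aspa, like Mbp and Mog, reached lower in E7 del than in any array of the other mutants. E7 del replicate 1 had the highest Mbp of the 3, the highest neuron level (9.38) and the lowest sterol mean. The order of these 3 arrays was not tested. With the myelin level, the mean of Mbp and Mog, as a covariate, the differences were -1.67 for Tm7sf2 (adjusted p = 0.024), -1.25 for Fdft1 (adjusted p = 0.173) and -1.19 for Stard4 (adjusted p = 0.213). With the myelin and neuron levels together they were -1.39 (adjusted p = 0.0897), -0.86 and -0.99, and 0 of 25 genes passed. With the neuron level alone, 5 passed, where 0.999% of all genes did: Cyp51, Fdft1, Fdps, Idi1 and Tm7sf2. Stard4 did not pass there (-1.27, adjusted p = 0.0542).

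The E7 del arrays all had titles from 53 to 55. With the title range as a block, the differences were -1.43 for Tm7sf2 (adjusted p = 0.0998), -1.32 for Fdft1 (adjusted p = 0.299) and -1.04 for Stard4 (adjusted p = 0.48). Within titles 41 to 64 alone, where E7 del could be set against V544ins and E10 del.v2, they were -1.27, -1.20 and -0.89, and none of the 25 genes and 0 of all genes passed. Tm7sf2 kept its call without any 1 of the 45 arrays. Fdft1 lost it without E7 del replicate 2 (adjusted p = 0.252) or 3 (adjusted p = 0.0689). Stard4 lost it without any of the E7 del arrays (adjusted p from 0.117 to 0.265) and without D842V replicate 1, E10 del.v2 replicate 4 or C450 ins replicate 3 (adjusted p from 0.0505 to 0.0509). Mbp was not called without E7 del replicate 2 (-1.05, adjusted p = 0.536) or 3 (-2.74, adjusted p = 0.0759), and Mog was not called in 10 such fits: without E7 del replicate 2 (-2.00, adjusted p = 0.436) or 3 (-2.77, adjusted p = 0.23), and, with adjusted p from 0.0501 to 0.0533, without D842V replicate 1, 3 or 4, C450 ins replicate 2 or 3, E10 del replicate 3, or E10 del.v2 replicate 1 or 4.

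A comparison added after seeing these results set E7 del against EGFRvIII, both of upper titles only. It shares the E7 del arrays with the comparison above. Tm7sf2 fell by 1.65 ± 0.30 (SE; limma adjusted p = 0.00313), and was the 1 gene of 25 that passed, where 0.5% of all genes passed. Without E7 del replicate 2 it had an adjusted p of 0.058. Fdft1 had a log2 difference of -0.86 ± 0.35 (SE; adjusted p = 0.261) and Stard4 of -0.95 ± 0.36 (SE; adjusted p = 0.227). Fasn, at 0.48 ± 0.19 (SE; adjusted p = 0.267), and Scd1, at -0.56 ± 0.28 (SE; adjusted p = 0.395), had the smallest p of the fatty acid genes.

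The other 5 mutants, each set against the mean of the rest, gave 0 of 25 genes at an adjusted p under 0.05 in limma's test. These comparisons share arrays with each other and with that of E7 del. In C450 ins 0% of all genes passed, and 5 of the 25 had an unadjusted p under 0.05, against 3.66% of all genes. The smallest p among sterol genes belonged to estimates of 0.68 ± 0.21 (SE) for Dhcr7, the last enzyme of the pathway to cholesterol, and 0.57 ± 0.22 (SE) for Hmgcs1, both with an adjusted p of 1. Scd1, at 0.31 ± 0.20 (SE), and Acaca, at 0.11 ± 0.13 (SE), had the smallest p of the fatty acid genes. Of the 25 estimates 21 were above 0, with a median of 0.31, against 57.1% of all genes and a median of 0.03. In D842V 0.584% of all genes passed. Of the 25, 5 had an unadjusted p under 0.05, against 11.7% of all genes, and 20 estimates were above 0, against 48% of all genes. Fdft1 had 0.62 ± 0.25 (SE; adjusted p = 0.29) and Idi1 0.60 ± 0.26 (SE; adjusted p = 0.321). Of the fatty acid genes, Acaca had 0.11 ± 0.13 (SE) and Elovl6 0.20 ± 0.27 (SE). Mog, at 1.39 ± 0.51 (SE; adjusted p = 0.216), and Mbp, at 1.04 ± 0.42 (SE; adjusted p = 0.289), lay on the same side.

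In E10 del 0.796% of all genes passed. Of the 25, 6 had an unadjusted p under 0.05, or 24%, against 27.7% of all genes. The sterol genes lay on both sides, with 12 of 20 estimates above 0 and a median of 0.02. Over all genes 43.4% of estimates were above 0, with a median of -0.07. Of the fatty acid estimates 1 of 5 was above 0, with a median of -0.37. The 4 sterol genes with an unadjusted p under 0.05 were all higher in E10 del. Tm7sf2 had a log2 difference of 0.70 ± 0.21 (SE, limma adjusted p = 0.0676) and Msmo1 of 0.70 ± 0.22 (SE, adjusted p = 0.0723). Fdft1 had 0.65 ± 0.25 (SE, adjusted p = 0.111) and Sc5d 0.46 ± 0.19 (SE, adjusted p = 0.128). Of the sterol genes below 0, Dhcr7 had -0.37 ± 0.21 (SE, adjusted p = 0.226) and Hsd17b7 -0.36 ± 0.27 (SE, adjusted p = 0.371). Fasn had -0.45 ± 0.14 (SE; adjusted p = 0.0699) and Acaca, which makes malonyl-CoA, -0.37 ± 0.13 (SE; adjusted p = 0.0969). With 1 array left out, 0 of the 25 passed in 39 of 45 fits. The count was 5 without E10 del replicate 4 (13.7% of all genes passed), 3 without E10 del replicate 5 (14%) or E10 del.v2 replicate 2 (7.5%), 2 without V544ins replicate 2 (4.54%), and 1 without D842V replicate 1 (3.51%) or E7 del replicate 1 (2.96%). E10 del had the highest neuron levels of the groups by median, 10.55. In E10 del.v2 0% of all genes passed and 0 of the 25 had an unadjusted p under 0.05, against 6.01% of all genes. Its estimates were -0.22 ± 0.16 (SE) for Dhcr7, -0.20 ± 0.17 (SE) for Hmgcs1, 0.20 ± 0.16 (SE) for Scd1 and -0.05 ± 0.10 (SE) for Acly. In V544ins 0% of all genes passed, and 4.44% had an unadjusted p under 0.05. Of the 25, 1 did: Stard4, at -0.49 ± 0.21 (SE; adjusted p = 1). Insig1, at -0.32 ± 0.16 (SE), Fasn, at 0.15 ± 0.11 (SE), and Acaca, at 0.12 ± 0.11 (SE), followed.

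Against EGFRvIII, the mean of the 6 mutants gave 0 of 25 genes at an adjusted p under 0.05 in limma's test, although 8.9% of all genes passed. Of the 25, 4 had an unadjusted p under 0.05, or 16%, against 27.5% of all genes. Of the estimates 20 were above 0 with a median of 0.15, against 47.6% and a median of -0.02 over all genes tested. Fdft1 had 0.49 ± 0.20 (SE; adjusted p = 0.118) and Hmgcs1 0.39 ± 0.18 (SE; adjusted p = 0.142). Of the fatty acid genes, Elovl6, which lengthens palmitate, had 0.49 ± 0.22 (SE; adjusted p = 0.138) and Fasn 0.18 ± 0.11 (SE; adjusted p = 0.29). EGFRvIII replicates 4, 5 and 6 had the lowest Mbp of their group (11.89, 9.12 and 10.64), and without them the Elovl6 estimate was -0.07. Without EGFRvIII replicate 1 Fdft1 passed (0.63, adjusted p = 0.0327), 1 of the 25 where 19% of all genes passed.

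The sterol genes varied together from array to array. Across the 45 arrays, which share their genotypes, the median Pearson correlation of the 190 sterol pairs was 0.46, against 0.01 over all pairs of the genes tested. After subtracting each group's mean it was 0.43. Idi1 followed the mean of the other 19 sterol genes most closely (r = 0.95), then Fdps and Cyp51 (both r = 0.88), Nsdhl (r = 0.85) and Sqle, the squalene epoxidase (r = 0.84). Scap did not (r = -0.01). Tm7sf2 stood at 0.574, and at 0.41 after the group means were subtracted. Over the 45 arrays Sc5d (0.567), Lss (0.55), Srebf2 (0.42), Ebp (0.37) and Hsd17b7 (0.36) were lower still. The 5 fatty acid genes had a median of 0.27 over their 10 pairs, and the 100 pairs of a sterol with a fatty acid gene a median of 0.15. Elovl6 was the fatty acid gene nearest to the sterol mean (r = 0.49), and Acly the farthest from it (r = -0.07). These correlations are descriptions of the arrays and have no test.

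Relations with the myelin genes were tested over the 45 arrays for each of the 25 genes with Mbp and with Mog, 50 relations in all. The test was a two-sided permutation test with 100000 resamples and adjustment over all genes. Arrays were permuted without regard to genotype or title range, so differences between groups and title ranges enter these p-values. With Mbp, 4 of 25 passed, all positive, where 1.59% of all genes passed: Scd1 (r = 0.56, rho = 0.37, p = 2e-05, adjusted p = 0.00605), Idi1 (r = 0.48, rho = 0.47, adjusted p = 0.0295), Fdft1 (r = 0.48, rho = 0.35, adjusted p = 0.0437) and Cyp51 (r = 0.47, rho = 0.55, adjusted p = 0.0437). By rank, 4 of 25 passed, where 418 of all 11807 genes did: Idi1, Cyp51, Hsd17b7 and Elovl6. Scd1 and Fdft1 did not pass by rank (adjusted p = 0.164 and 0.21). With Mog, 5 of 25 passed by Pearson, all positive, where 4.88% of all genes passed: Cyp51 (r = 0.60, rho = 0.55), Idi1 (r = 0.58, rho = 0.53), Hmgcs1 (r = 0.54, rho = 0.45), Fdft1 (r = 0.54, rho = 0.43) and Elovl6 (r = 0.52, rho = 0.48). For Cyp51 and Idi1 with Mog the unadjusted p was 1e-05, the smallest these permutations can give, and their adjusted p was 0.00136. The adjusted p was 0.0072 for Fdft1, 0.00824 for Hmgcs1 and 0.00991 for Elovl6. By rank with Mog, Cyp51, Idi1, Hsd17b7 and Elovl6 passed, where 335 of all 11807 genes did.

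These relations rested partly on 2 arrays and on 1 title range. The arrays farthest from the median of both Mbp and Mog were E7 del replicate 2 and EGFRvIII replicate 5. Without them r with Mbp was 0.32 for Scd1, 0.35 for Idi1, 0.25 for Fdft1 and 0.44 for Cyp51, and r with Mog was 0.54 for Cyp51, 0.49 for Idi1, 0.41 for Hmgcs1, 0.40 for Fdft1 and 0.58 for Elovl6. Within the 24 upper titles the median r of the 25 genes with Mog was 0.45, and within the 21 lower titles 0.13. Fdft1 with Mbp had r = 0.60 in the upper and -0.33 in the lower titles, so that relation did not hold within both. Elovl6 with Mog had r = 0.55 and 0.53. Tm7sf2 did not pass with either gene, and its r with Mbp was 0.33, or -0.01 without those 2 arrays.

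Taking genotype out, a slope on the myelin level within groups was fitted for each gene. Of the 25 slopes 24 were above 0, with a median of 0.09, against 47.4% and a median of -0.01 over all genes tested. Lss, which closes squalene epoxide into lanosterol, was the 1 of 25 that passed, with 0.29 ± 0.07 (SE) log2 units per log2 unit of myelin level (limma adjusted p = 0.0347), where 1.69% of all genes passed. Lss ran from 5.88 in EGFRvIII replicate 5, which had the lowest Mbp of its group, to 8.23 in V544ins replicate 5, which had a Mog level of 9.64. Scd1 had a slope of 0.23 ± 0.06 (SE; adjusted p = 0.0576) and Elovl6 of 0.25 ± 0.09 (SE; adjusted p = 0.172). Tm7sf2 had a slope of 0.00 ± 0.08 (SE). The Lss call ended without EGFRvIII replicate 5 (0.23, adjusted p = 0.233), and, with adjusted p from 0.0511 to 0.0691, without E7 del replicate 1 or 2, V544ins replicate 4, 5 or 6, or EGFRvIII replicate 7 or 8. Within titles 1 to 30 or 41 to 64 alone, 0 of 25 passed. In reverse, Scd1 passed without D842V replicate 1 or 5, EGFRvIII replicate 2 or 4, E7 del replicate 1, or V544ins replicate 4 or 5 (adjusted p from 0.0234 to 0.0421), and Elovl6 without E7 del replicate 1 (adjusted p = 0.00333) or 2 (adjusted p = 0.0115).

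**Figure D4:**
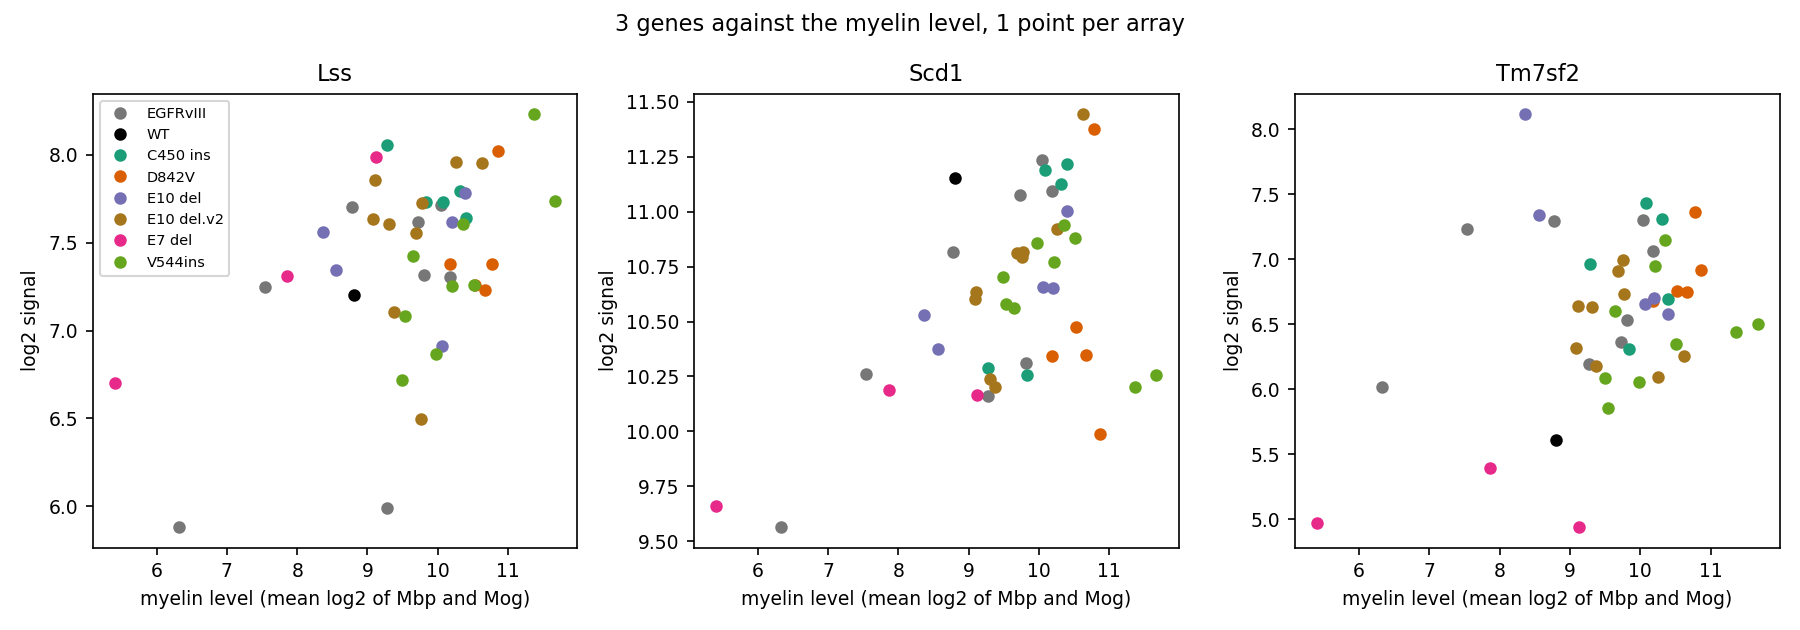
Log2 signals of Lss, Scd1 and Tm7sf2 against the myelin level (mean log2 of Mbp and Mog), 1 point per array, coloured by genotype. EGFRvIII replicate 5 has the lowest values of Lss (5.88) and Scd1 (9.56), while the E7 del arrays are low in Tm7sf2 at myelin levels from 5.40 to 9.12.

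With the neuron level in the same fit, 2 of 25 passed on the myelin level, where 2.97% of all genes passed: Lss at 0.27 ± 0.07 (SE; limma adjusted p = 0.0318) and Scd1 at 0.25 ± 0.06 (SE; adjusted p = 0.0213). Without EGFRvIII replicate 5 neither passed (adjusted p = 0.353 and 0.208). Lss also lost its call without EGFRvIII replicate 1 or 8, E7 del replicate 1 or 2, or V544ins replicate 5 (adjusted p from 0.0504 to 0.0781), and 4 of 25 passed without EGFRvIII replicate 6, where 2.63% of all genes did. The slope on the neuron level in this fit was a choice made after seeing the data. There 63.9% of all 11798 genes passed, 2955 with a positive and 4586 with a negative slope. Of the 25, 11 passed, or 44%. This is a smaller share than that of all genes, so a call here does not set these genes apart. Fdft1 (0.14 ± 0.04, SE) and Tm7sf2 (0.10 ± 0.04, SE) increased with the neuron level, while Mvk, Mvd, Cyp51, Hsd17b7, Ebp, Acly, Acaca, Fasn and Elovl6 decreased. Of the fatty acid genes 4 of 5 had a called negative slope, from -0.18 ± 0.04 (SE) for Elovl6 to -0.06 ± 0.02 (SE) for Acly. Scd1 had 0.06 ± 0.03 (SE; adjusted p = 0.0997). The Tm7sf2 call ended without EGFRvIII replicate 5, V544ins replicate 3 or C450 ins replicate 4 (adjusted p from 0.0562 to 0.0635), and that of Ebp, a sterol isomerase, without V544ins replicate 5 (adjusted p = 0.0529).

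**Figure D5:**
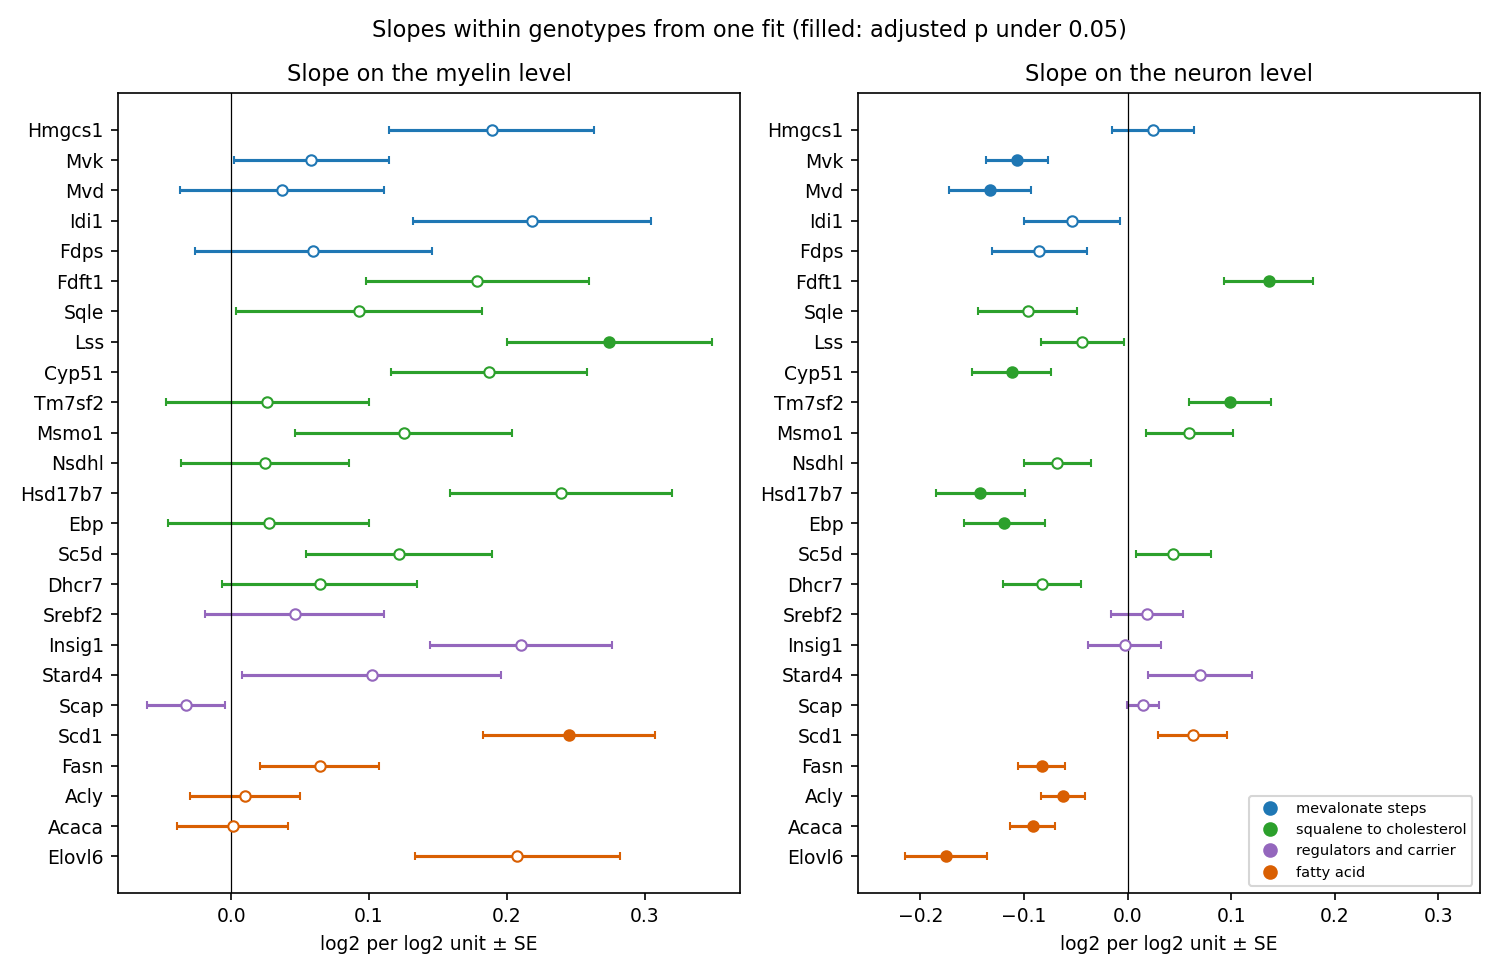
Slopes of the 25 genes on the myelin level (left) and on the neuron level (right) from 1 fit that holds genotype and both levels, in log2 units per log2 unit, ± SE; filled points have an adjusted p under 0.05. Lss and Scd1 are filled on the left; on the right Fdft1 and Tm7sf2 are filled above 0 and 9 genes are filled below 0.

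A wider list of 30 lipid genes, of which 26 were tested, was read the same way. In E7 del against the other mutants, 0 of 26 passed limma's test, and 8 had an unadjusted p under 0.05, against 17% of all genes. Among the 6 mutants 0 of 26 passed and 7 had an unadjusted p under 0.05, against 18.2% of all genes. On the myelin level within groups, 4 of 26 passed, or 15.4% against 1.69% of all genes, all positive: Elovl7, a fatty acid elongase (0.80 ± 0.14, SE), Gal3st1, which makes sulfatide (0.74 ± 0.20, SE), Ugt8a, which makes galactosylceramide (0.71 ± 0.16, SE), and Fa2h, which hydroxylates the fatty acids of myelin lipids (0.67 ± 0.13, SE). Adjusted p ran from 0.00044 for Elovl7 to 0.0394 for Gal3st1. Of the 26 slopes 25 were above 0, with a median of 0.085. The list was chosen with earlier results of these data known and holds genes of myelin lipids such as Fa2h. These shares are therefore a description of the list only. Against EGFRvIII, 2 of 26 passed, or 7.69%, which is no more than the 8.9% of all genes. The mutants were higher in Fa2h by 1.26 ± 0.37 (SE; adjusted p = 0.0285) and lower in Sptlc2, a subunit of serine palmitoyltransferase, by a log2 difference of -0.58 ± 0.15 (SE; adjusted p = 0.0176).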

How the data were processed

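Total RNA extracted with Trizol was labelled with biotin from 100 ng by an Affymetrix 3′ IVT protocol, per the labels' protocols. The authors deposited log2 signals per probe set, made with RMA per the submitters' processing notes, with no version given in the sources used here. RMA corrects background, normalises quantiles and summarises probe sets, which can narrow differences between low signals. Of 45141 probe sets, 28898 had 1 gene symbol in the platform annotation, 551 several and 15692 none; only the first were used. Genes exceeding 4.79, the median of the whole table, on 3 or more arrays were tested: 11809 of 17097. One fit of 8 group means over all 45 arrays was made with limma 3.58.1 (R 4.3.3; lmFit, eBayes, Benjamini-Hochberg over all genes). Correlations used numpy 2.4.6 under Python 3.11.15. The fits were tested on simulated data. The genes and lists were chosen with earlier results of these data known. Genes called in a comparison were named, otherwise the 2 with the smallest p in each branch. Replicates are numbered in accession order. The number of arrays limits precision. Alternatives varied the filter, probe sets, scaling, prior, weights, title range, covariates and arrays.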

Additional observations from a re-analysis of the deposited data

Results flagged for a closer look

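Within groups of 4 to 10 arrays, 13 single values out of 162 groups and genes tested stood apart by Dixon's criterion, where chance flags about 1 in 20. Of these, 6 were low values in E10 del.v2 replicate 2, the array with the lowest score on the first principal component and the highest neuron level, 11.68: Mvd at 5.30, Idi1 at 7.81, Fdps at 7.45, Sqle at 7.72, Cyp51 at 7.41 and Ebp at 6.76. In the other arrays of that group the lowest values were 6.24 for Mvd and 8.68 for Idi1. The part of the neuron level in these values was not tested. Fdft1 was low in E10 del.v2 replicate 7, at 7.84.

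The remaining 6 were single genes in single arrays. Lss was high in D842V replicate 5, at 8.02, against 7.23 to 7.38 in the other 4 arrays. Ebp was low in E10 del replicate 3, at 7.32. Sc5d was high in V544ins replicate 3, at 8.41, and Srebf2 low in V544ins replicate 5, at 6.80. Scap was high in EGFRvIII replicate 6, at 9.12, and Acaca was high in C450 ins replicate 4, at 8.35.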

How the results depend on the processing

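Counts below are of the 25 genes at an adjusted p under 0.05 in limma. A count given here or above without a share of all genes has a limit. It does not show whether these genes changed or all genes did. Other settings left most values on the same side: 3786 values kept direction and call or stayed near, 154 lost a call, 55 gained one, 82 counts moved and 11 values changed sign. The 3786 include genes called in neither fit, and many refits left out only 1 array, so this number does not measure how stable the calls were. Among the 6 mutants, Tm7sf2, Fdft1 and Stard4 lost their call in 4, 6 and 7 of 14 other settings. Without 1 array they lost it in 1, 17 and 23 of 45 fits. Array weights ran from 0.177 (E10 del.v2 replicate 2) to 10.1 (C450 ins replicate 3). With them limma called 22 of the 25 among the 6 mutants (91.9% of all genes), 12 in C450 ins (17.1%), 9 in D842V (39.6%), 13 in E10 del (71.2%), 2 in E10 del.v2 (19.1%), 15 in E7 del (56%), 11 in V544ins (39%), 3 between title ranges (30.3%), 10 for E7 del against EGFRvIII (14.4%) and 0 for the myelin slopes (1.2% and 0.957%). After seeing the data, the single WT array was given a weight of 1, and 1 fit still warned about convergence. Among the 6 mutants the count was 0 with the title block, within titles 41 to 64, within titles 1 to 30 and with the myelin level, and 1 with the neuron level or without E10 del replicates 1 to 3 and E10 del.v2 replicate 2. For E7 del it was 0 with the title block, within titles 41 to 64 and with both levels, 1 with the myelin level and 5 with the neuron level; without those 4 arrays Stard4 had an adjusted p of 0.0755. Mbp and Mog were not refitted with the myelin level, which is built from them, a choice made after seeing the data. Against EGFRvIII it was 1 within titles 41 to 64 (Tm7sf2; 0.677% of all genes) and 1 with the neuron level (Elovl6; 1181 of all 11809 genes). Between title ranges it was 2 without those 4 arrays (24.8%). The myelin slope gave 3 with the mean of probe sets, 2 with Mbp alone, 2 without E7 del (added after seeing the data), and 0 within titles 1 to 30, within titles 41 to 64 or with other myelin markers. With the neuron level it gave 4 with the mean of probe sets, 6 without those 4 arrays, 1 without EGFRvIII replicates 4 to 6, and 0 within either title range, with Mog alone or with other markers. The neuron slope gave 2 within titles 41 to 64 (21.3%) and 4 within titles 1 to 30 (38.9%).

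Sign changes were Fdft1 against EGFRvIII (-0.0665 within titles 41 to 64), Elovl6 against EGFRvIII (-0.0733 without EGFRvIII replicates 4 to 6), in D842V Acaca (-0.0113 with the mean of probe sets) and Elovl6 (-0.11 with the myelin level), in E10 del.v2 Hmgcs1 (0.0182 within titles 41 to 64), Scd1 (-0.26 within titles 1 to 30) and Acly (0.0070 with the neuron level), in E7 del Scd1 (0.11 with both levels), in V544ins Fasn (-0.0213) and Acaca (-0.25) within titles 1 to 30, and the Lss myelin slope beside the neuron level (-0.0333 within titles 1 to 30). None of these had passed except Lss. The causes were not tested. Leaving out 1 array at a time gave 0 to 3 among the 6 mutants (4 to 141 of all genes) and 1 to 3 for E7 del (4 to 85). The count was 0 to 5 for E10 del (0 to 1653) and 0 to 1 against EGFRvIII (185 to 2239). It was 0 to 1 for E7 del against EGFRvIII (10 to 128) and 0 to 2 between title ranges (0 to 2933). The myelin slopes gave 0 to 2 (143 to 338) and 0 to 4 (152 to 597). The neuron slope gave 11 to 14 (7114 to 7655). Among the 6 mutants Fdft1 lost its call without each D842V and E7 del array, E10 del 1, 2 or 3, E10 del.v2 1, 3, 5 or 6, C450 ins 5 or V544ins 8, and Stard4 without each D842V and E7 del array, E10 del 1, 2 or 3, E10 del.v2 1, 3, 4, 5 or 6, C450 ins 1, 3, 4 or 5, or V544ins 6, 8 or 9. No paired analysis was possible because the labels carry no replicate numbers. With 3 arrays, E7 del limits its comparisons, and Hmgcs1 lies near the low end of the signals.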

Other observations

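The 2 arrays with the highest Mog levels were V544ins replicates 4 and 5, at 10.08 and 9.64. Their neuron levels were low, 5.58 and 4.79, and their sterol means were high, 8.36 and 8.13. E10 del replicate 1 had a sterol mean of 8.30 with a neuron level of 11.27 and an Mbp level of 11.17, low for its group. High sterol means thus occurred with high and with low neuron levels. No test was run on these arrays.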
